A study of Mus musculus with 20 samples.

Results

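The acute phase proteins and hepcidin were followed in mouse liver through 10 transcripts: Saa1, Saa2, Saa4, Orm1, Orm2, Hp, Hpx, Lcn2, Apcs and Hamp. They were taken by symbol from a table of raw read counts, where each had 1 row, so they are 10 of the 29915 genes in the table. All 10 passed the filter on low counts, which kept 13894 genes. The livers came from male mice about 19 weeks old that were fed regular chow and sampled at zeitgeber time 15 to 17 h, and there were 5 libraries of each of 4 groups: K556R refed, wild type (WT) refed, K556R fasted and WT fasted. In the K556R mice, Cre recombination at 8 weeks of age switched on, in hepatocytes, a form of the transcription factor Prox1 that cannot carry SUMO at the mutated lysine, and the livers were taken 11 weeks later. The sample titles call the K556R livers Cre and the WT livers Ctrl, so effects of Cre itself and of the K556R protein cannot be told apart, and what drives Cre is not given in the sources used here. The length of the fast and of refeeding is not given either.

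Acute phase proteins are plasma proteins that hepatocytes make at a changed rate during infection or tissue injury. Interleukin-6 from macrophages acts through its receptor and the transcription factor STAT3, and interleukin-1 acts through NF-kappaB and the C/EBP factors, on the promoters of these genes. Hepcidin, the product of Hamp, is the peptide hormone that makes cells withdraw the iron exporter ferroportin, and so keeps iron out of plasma. Its gene answers both to interleukin-6 through STAT3 and to iron through bone morphogenetic proteins (BMPs) and SMAD factors.

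Promoter sequences were read from the RefSeq table for mouse (GRCm38.p6), which gave the 250 bases before the transcription start for 8 of the 10 genes, Hp and Orm1 being the others. Of 6 motifs searched on both strands, the C/EBP motif TTGCNNAA was in 6 of the 8 windows (Saa1, Saa2, Saa4, Orm2, Hpx and Lcn2) and in 9.55% of all 27025 promoters of the same length. The STAT motif TTCNNNGAA was in the windows of Hamp and Apcs and in 7.18% of all promoters. The BMP response motif GGCGCC was in that of Hamp alone among the 8, and in 9.54% of all promoters. The CRE-type motif TGACGT (6.56% of all promoters), the E-box CACGTG (6.05%) and a kappaB motif (1.4%) were in none of the 8 windows, which says only that these letters are not there. No motif match overlapped another. 5 windows are shown, 5′ to 3′ on the gene's own strand, because the 2 inducible serum amyloid genes varied together, because hepcidin has a near copy, and because Apcs was the gene that rose on refeeding in WT livers. Capitals mark the motif matches.
Saa1: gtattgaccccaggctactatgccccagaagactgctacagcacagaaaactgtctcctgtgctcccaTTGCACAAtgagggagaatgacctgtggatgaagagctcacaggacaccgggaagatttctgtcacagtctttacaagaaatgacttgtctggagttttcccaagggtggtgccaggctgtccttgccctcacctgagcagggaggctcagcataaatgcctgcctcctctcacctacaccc
Saa2: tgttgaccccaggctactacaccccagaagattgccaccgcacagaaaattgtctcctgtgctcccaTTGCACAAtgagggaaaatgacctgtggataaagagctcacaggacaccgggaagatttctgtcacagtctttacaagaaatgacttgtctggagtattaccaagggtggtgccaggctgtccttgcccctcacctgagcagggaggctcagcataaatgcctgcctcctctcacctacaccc
Hamp: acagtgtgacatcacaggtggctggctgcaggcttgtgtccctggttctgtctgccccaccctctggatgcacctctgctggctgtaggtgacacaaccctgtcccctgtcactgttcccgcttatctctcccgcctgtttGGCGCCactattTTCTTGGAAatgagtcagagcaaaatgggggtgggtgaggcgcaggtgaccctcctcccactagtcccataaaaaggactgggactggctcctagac
Hamp2: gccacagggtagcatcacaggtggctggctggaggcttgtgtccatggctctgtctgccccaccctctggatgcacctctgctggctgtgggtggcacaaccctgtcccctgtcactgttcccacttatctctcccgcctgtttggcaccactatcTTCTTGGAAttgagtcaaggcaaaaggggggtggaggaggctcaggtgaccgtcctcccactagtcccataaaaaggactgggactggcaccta
Apcs: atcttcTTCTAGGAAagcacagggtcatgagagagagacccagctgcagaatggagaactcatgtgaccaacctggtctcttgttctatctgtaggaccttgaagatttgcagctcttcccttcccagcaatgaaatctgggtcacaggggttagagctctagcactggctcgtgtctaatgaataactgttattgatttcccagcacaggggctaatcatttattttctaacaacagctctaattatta
The Saa1 window is chr7:46742981-46743230 on the minus strand and the Saa2 window chr7:46751583-46751832 on the plus strand, so these genes point away from each other. Both hold the same C/EBP letters, TTGCACAA, 182 to 175 bases before the start in Saa1 and 183 to 176 bases before it in Saa2, and the windows were identical at 238 of 249 aligned bases (95.6%). The Hamp window, chr7:30944030-30944279 on the minus strand, holds GGCGCC 109 to 104 bases and TTCTTGGAA 97 to 89 bases before the start. The Hamp2 window, chr7:30924182-30924431 on the minus strand, shared 227 of 247 aligned bases with it (91.9%) and holds the STAT match 94 to 86 bases before the start but no GGCGCC. The Apcs window, chr1:172895055-172895304 on the minus strand, holds TTCTAGGAA 244 to 236 bases before the start.

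The libraries held between 33746054 and 50647297 counted reads, and the 10 genes together took 0.645 to 0.982% of them. Batch 1 took in 14 libraries. The 6 libraries of batch 2 were 3 of the 5 K556R refed ones and 1 of each other group, so batch was a term in the models. Hepatocyte markers were high in every library, at a sum of 107100 to 153400 CPM (counts scaled to a common library size) over 9 genes. Neutrophil markers summed to 0.612 to 4.12 CPM over the 10 listed genes in the table, and Camp, Ltf and Mpo were at 0 in 17, 16 and 15 of the 20 libraries. Csf3r was found in every library, at 0.528 to 2.28 CPM. Prox1 mRNA was lower in K556R livers averaged over both feeding states (log2 fold change −0.72, SE 0.10, edgeR adjusted p = 0.00563). A lower level of Prox1 mRNA and the mutated form therefore cannot be told apart in the genotype contrasts. A pair of K556R libraries, replicate 1 of batch 1 in the refed and in the fasted group, stood apart from the other 18 on the second principal component (10.4% of the variance), at −37.8 and −26.4 against −1.80 to 7.08. Both also had the highest sums of proliferation markers (46.2 and 17.5 CPM, against at most 10.01 CPM elsewhere) and of lymphocyte markers (6.25 and 7.25 CPM, against at most 2.60 CPM elsewhere). Values without both of these libraries are printed beside several of the results, a comparison chosen after the data were seen. Nothing in the labels says that the 5 libraries of a group are 5 mice, so p-values measure the spread between these libraries.

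At rest, these transcripts spanned a wide range of levels, compared here as mean CPM per kilobase of transcript over the 20 libraries. Hpx, the heme scavenger hemopexin, led with 2354 CPM per kb, followed by Hamp with 1799 and Hp, the hemoglobin scavenger haptoglobin, with 1705 CPM per kb. Orm1, which encodes the carrier protein orosomucoid, stood at 703 CPM per kb, and Saa4, the serum amyloid A gene that is made constitutively, at 229 CPM per kb. Apcs, which encodes the pentraxin serum amyloid P, and Saa1 were close to each other at 56.1 and 55.0 CPM per kb. Saa2, Orm2 and Lcn2, which encodes the iron-siderophore binder lipocalin 2, closed the order at 16.7, 9.70 and 5.86 CPM per kb. Hamp and Hp lay closer together than the spread of either over the libraries, whose coefficients of variation were 18.4% and 20.7%, and so did Apcs and Saa1 with 25.0% and 40.6%.

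The low genes were also those that varied most between libraries of 1 group. After group and batch terms were removed, the residual standard deviation on the log2 scale was 0.81 for Saa2, 0.78 for Lcn2, 0.51 for Saa1 and 0.48 for Orm2, higher than in 97.3 to 99.6% of the 10359 genes with a mean of at least 1 log2 CPM. It was 0.16 for Hp, 0.17 for Orm1 and 0.20 for Hpx, against a median of 0.15 over those genes. The lowest library held 187 reads of Saa2, 143 of Orm2 and 48 of Lcn2.

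**Figure D1:**
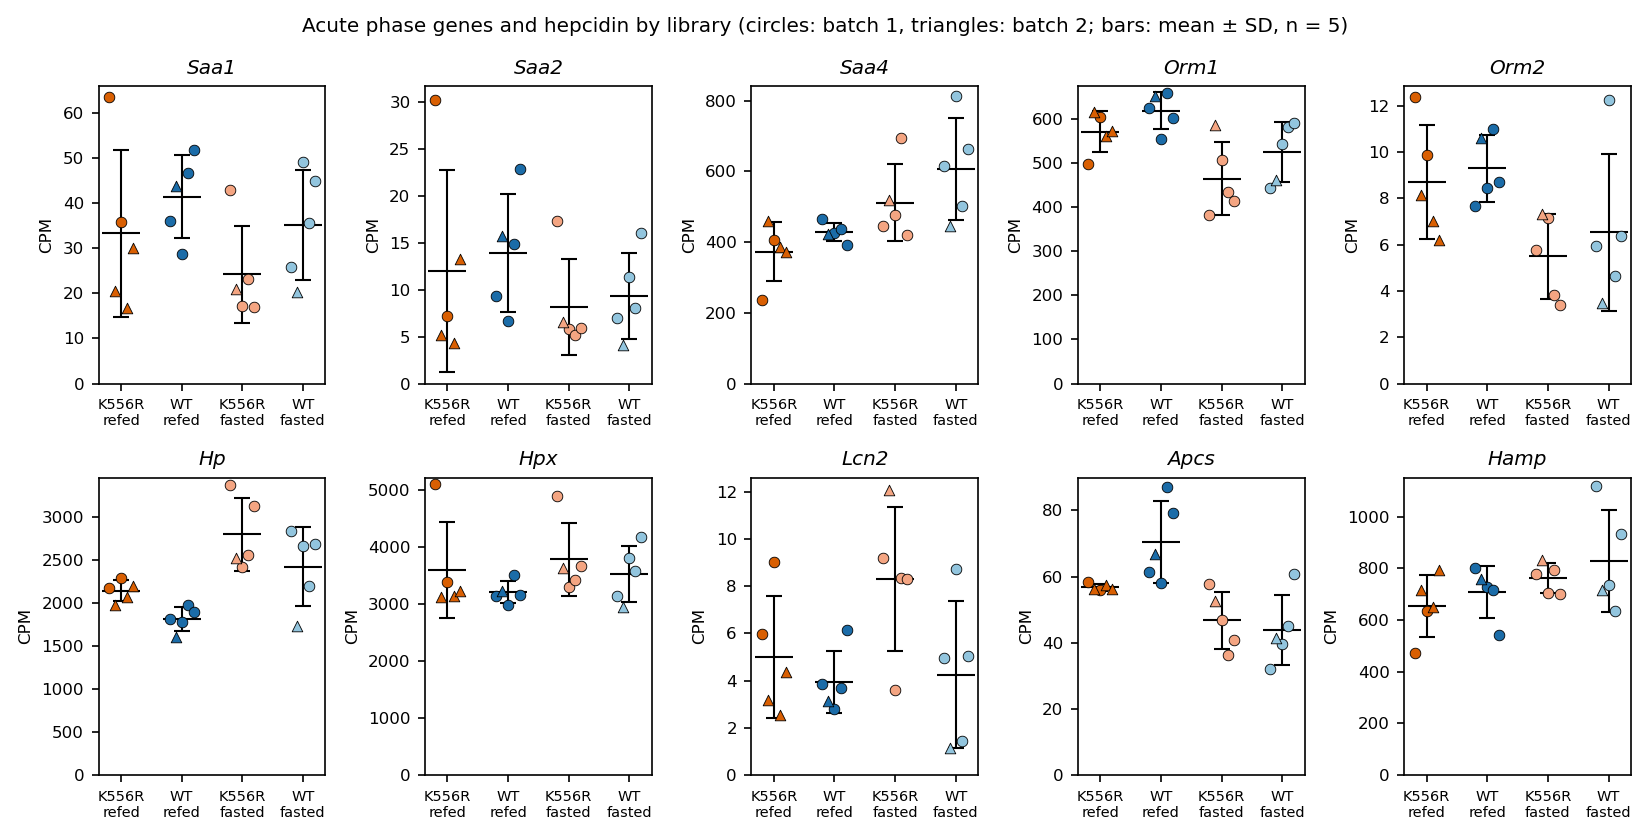
CPM (linear axis from 0) of each gene in the 5 libraries of K556R refed, WT refed, K556R fasted and WT fasted livers, with circles for batch 1, triangles for batch 2 and bars for mean ± SD. Saa1, Saa2 and Hpx each have 1 K556R library per feeding state at the top of their groups, Apcs is nearly level across the K556R refed libraries (56.0 to 58.3 CPM), and Hp is lower in refed than in fasted livers.

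Refeeding after a fast is the first contrast in the design, and few of these genes passed the test in it. In WT livers Apcs, a major acute phase protein of mice, rose 1.61-fold, while Hp and Saa4 fell to 0.754-fold and 0.705-fold of their fasted levels. In K556R livers Hp fell to 0.821-fold. Thus 3 of 10 genes passed the test in WT livers, 1 higher and 2 lower, where 45.1% of all tested genes passed (20.9% higher, 24.2% lower), and 1 of 10 passed in K556R livers, where 39.9% did (19.6% higher, 20.3% lower). At an unadjusted p under 0.05 there were 4 of 10 in each genotype, beside 51.2% of all tested genes in WT and 47.3% in K556R livers. None of the 10 separated WT refed from WT fasted libraries without overlap, which 34.6% of all tested genes did. The median log2 fold change of the 10 genes was 0.09 in WT and 0.13 in K556R livers, beside −0.01 and 0.01 over all tested genes. With upper-quartile scaling the calls over all genes in WT livers shifted to 3645 higher and 2747 lower, beside 2904 and 3359, and that scaling called Orm1 and Orm2 in place of Hp in K556R livers. In whole liver, fewer cells of a type and less RNA per cell cannot be told apart.

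Hp measured 2174, 2288, 1975, 2066 and 2194 CPM in K556R refed livers, against 3368, 2420, 2550, 3124 and 2522 CPM in K556R fasted livers. In WT livers it measured 1814, 1783, 1976, 1892 and 1609 CPM when refed, against 2839, 2664, 2194, 2682 and 1727 CPM when fasted. Every K556R refed library lay below every K556R fasted one. Groups without overlap, in either direction, were found for 26.9% of all tested genes in that contrast. In WT livers the fasted batch 2 library, at 1727 CPM, fell inside the refed range. Hp fell by 0.41 on the log2 scale in WT livers (SE 0.10, 0.754-fold, adjusted p = 0.00222 by edgeR) and by 0.28 in K556R livers (SE 0.11, 0.821-fold, adjusted p = 0.0365). Within batch 1 and batch 2 the differences were −0.47 and −0.10 in WT and −0.35 and −0.28 in K556R livers. The WT call held under all 32 alternative fits, while the K556R call was lost in 13 of them. It was lost without either of the libraries standing apart (adjusted p = 0.108 without the refed one, 0.085 without the fasted one), without K556R fasted replicate 4 of batch 1 (0.073) or the batch 2 one (0.112), without K556R refed replicate 2 of batch 1 (0.116) or replicate 1 of batch 2 (0.0566), and without the batch 2 WT refed library (0.0518). Limma lost it too (adjusted p = 0.197), as did upper-quartile scaling (0.0833), no filter on low counts (0.0648) and batch 1 alone (0.0647). The same held without both libraries standing apart (adjusted p = 0.186), and without these and WT fasted replicate 1 of batch 2 (0.0577).

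Saa4 measured 236, 405, 461, 387 and 373 CPM in K556R refed livers, against 444, 477, 695, 420 and 520 CPM in K556R fasted livers. In WT livers its levels were 465, 425, 436, 392 and 422 CPM when refed, against 616, 812, 502, 662 and 445 CPM when fasted. The WT refed libraries were tightly grouped and overlapped the fasted ones through 1 fasted library of batch 2. Saa4 fell by 0.50 on the log2 scale in WT livers (SE 0.17, 0.705-fold, adjusted p = 0.0225). The K556R value was close to it, −0.46 (SE 0.19, adjusted p = 0.0551), without passing the test, and 9 of 32 alternative fits called it (DESeq2 adjusted p = 0.0308). The WT call was lost without fasted replicate 2 of batch 1 (adjusted p = 0.0809), fasted replicate 4 of batch 1 (0.0554) or refed replicate 4 of batch 1 (0.0532), and the within-batch differences were −0.57 in batch 1 and −0.07 in batch 2.

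Apcs measured 58.3, 56.0, 56.1, 57.5 and 56.1 CPM in K556R refed livers, against 57.8, 46.9, 36.3, 40.7 and 52.5 CPM in K556R fasted livers. In WT livers it measured 61.4, 58.0, 87.2, 79.2 and 66.7 CPM when refed, against 32.1, 39.6, 45.0, 60.9 and 41.6 CPM when fasted. The WT refed libraries ran higher than the K556R refed ones, with overlap at the low end, 1 WT fasted library (60.9 CPM) reached into the WT refed range, and the K556R refed libraries differed among themselves by no more than 1.04-fold. Apcs rose in WT livers by 0.69 on the log2 scale (SE 0.15, 1.61-fold, adjusted p = 0.000946), with 0.70 in batch 1 and 0.68 in batch 2, and this call held under all 32 alternative fits. In K556R livers the value was 0.28 (SE 0.16, 95% interval −0.06 to 0.61, adjusted p = 0.173). The difference between the genotypes' responses was −0.41 (SE 0.22, 95% interval −0.87 to 0.05, unadjusted p = 0.0736, adjusted p = 1.00), so a different response of Apcs in K556R livers was not shown.

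The orosomucoid genes lay above their fasted levels in refed livers of both genotypes without passing the test. Orm1 measured 498, 606, 617, 562 and 573 CPM in K556R refed livers, against 382, 508, 435, 415 and 586 CPM in K556R fasted livers. In WT livers it measured 626, 555.5, 659, 603 and 653 CPM when refed, against 443, 544, 583, 590 and 463 CPM when fasted. Its log2 fold changes were 0.26 in K556R (SE 0.11, adjusted p = 0.0657) and 0.24 in WT livers (SE 0.10, adjusted p = 0.0731). Of 32 alternative fits each, 9 called the K556R value and 10 the WT value, among them upper-quartile scaling (adjusted p = 0.0189 and 0.0131), DESeq2 (0.0498 and 0.0435) and limma (0.0465 and 0.0135). Orm2, at 6.21 to 12.4 CPM in K556R refed and 3.41 to 7.33 CPM in K556R fasted livers, had a log2 fold change of 0.72 (SE 0.29, adjusted p = 0.0591), which 7 of 32 alternative fits called. In WT livers it ranged over 7.69 to 11.0 CPM when refed and 3.46 to 12.2 CPM when fasted, with a log2 fold change of 0.54 (SE 0.29, adjusted p = 0.144). Without WT fasted replicate 2 of batch 1 the WT value was 0.87 (SE 0.24, adjusted p = 0.00786). That library, whose removal also ended the WT call of Saa4, had the highest level of all 8 Kupffer cell and macrophage markers in the table, at a sum of 246 CPM against 46.3 to 103 CPM in the other WT fasted libraries, and their part in these values was not tested. Orm1 and Orm2 transcripts are 91.0% identical, so some reads of the much more abundant Orm1 may be counted to Orm2 and the other way round.

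The inducible serum amyloid genes did not pass the test on refeeding. Saa1 measured 63.4, 35.8, 20.5, 16.6 and 29.98 CPM in K556R refed livers, against 42.9, 17.2, 23.1, 17.0 and 20.9 CPM in K556R fasted livers. WT livers held 36.1, 28.6, 46.7, 51.7 and 43.9 CPM when refed, against 25.9, 49.0, 35.5, 44.8 and 20.3 CPM when fasted. All 4 groups overlapped, and in each K556R group the highest value came from the library standing apart. The log2 fold changes were 0.61 in K556R (SE 0.31, adjusted p = 0.138) and 0.30 in WT livers (SE 0.31, adjusted p = 0.457), with 1.04 in batch 1 and 0.06 in batch 2 for K556R and 0.08 and 1.11 for WT. Saa2 behaved alike at a lower level, between 4.28 and 30.3 CPM in K556R refed, 6.72 and 22.9 CPM in WT refed, 5.21 and 17.3 CPM in K556R fasted and 4.11 and 16.1 CPM in WT fasted livers. Its log2 fold changes were 0.74 in K556R (SE 0.52, adjusted p = 0.279) and 0.69 in WT livers (SE 0.51, adjusted p = 0.296). Their 95% intervals, −0.36 to 1.84 and −0.39 to 1.77, both included 0. Without the libraries standing apart the K556R values were 0.52 for Saa1 (SE 0.29, adjusted p = 0.179) and 0.41 for Saa2 (SE 0.49, adjusted p = 0.555). Without the fasted one of them alone, Saa1 was called in K556R livers at 0.85 (SE 0.31, adjusted p = 0.0381), and leaving out any 1 library gave 0.29 to 0.85.

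Hemopexin and hepcidin did not pass the test on refeeding, though 1 alternative fit called each of them. Hpx had log2 fold changes of 0.00 in K556R (SE 0.13, adjusted p = 0.993) and −0.13 in WT livers (SE 0.12, adjusted p = 0.419), and −0.09 in K556R livers without the libraries standing apart (SE 0.10, adjusted p = 0.519). The fit that called Hpx, in WT livers, left out 3 libraries (adjusted p = 0.0498), and the fit that called Hamp, in K556R livers, held only the groups compared (adjusted p = 0.0315). Hamp measured 471, 633, 717, 651 and 793 CPM in K556R refed livers, against 778, 703, 792, 700 and 833 CPM in K556R fasted livers. In WT livers it measured 801, 729, 716, 540 and 760 CPM when refed, against 1119, 735, 634, 933 and 716 CPM when fasted. The Hamp values were on the lower side in refed livers of both genotypes, with overlap in both. Its log2 fold changes were −0.28 in K556R (SE 0.15, 95% interval −0.61 to 0.04, adjusted p = 0.154) and −0.23 in WT livers (SE 0.14, 95% interval −0.53 to 0.08, adjusted p = 0.212). Hamp2, the near copy of hepcidin, stood far lower, at a mean of 30.8 CPM per kb against 1799 CPM per kb, and ran from 9.33 to 27.9 CPM in K556R refed, 11.0 to 17.9 CPM in WT refed, 8.88 to 27.9 CPM in K556R fasted and 1.20 to 12.3 CPM in WT fasted livers. Its log2 fold changes on refeeding were 0.07 in K556R (SE 0.41, adjusted p = 0.917) and 0.85 in WT livers (SE 0.41, adjusted p = 0.104). The transcripts of Hamp and Hamp2 are 94.6% identical, so their reads may not be fully separated, and both overlap the plus-strand long noncoding RNA gene Gm44662, whose reads cannot be told apart from theirs without strand information.

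Lcn2 measured 5.96, 9.002, 3.16, 2.54 and 4.35 CPM in K556R refed livers, against 9.18, 3.58, 8.33, 8.28 and 12.1 CPM in K556R fasted livers. In WT livers it measured 3.86, 2.80, 3.67, 6.15 and 3.13 CPM when refed, against 4.95, 8.71, 1.44, 5.03 and 1.14 CPM when fasted. Fasted WT libraries thus spanned 7.64-fold, and 4 of 5 fasted K556R libraries lay at 8.28 CPM or above. Refeeding gave log2 fold changes of −0.65 in K556R (SE 0.44, adjusted p = 0.267) and −0.06 in WT livers (SE 0.46, adjusted p = 0.932). The K556R value was 0.0033 without the K556R fasted library of batch 2, the one with the most Lcn2. Lipocalin 2 is also stored in neutrophil granules, and the granule genes Camp, Ltf, Ngp, Mpo and Elane reached at most 0.0764 CPM in any library. Of the remaining neutrophil markers in the table, Retnlg reached 0.0928, Cxcr2 0.186, S100a8 0.575 and S100a9 0.761 CPM. Csf3r, the highest of these markers, ran from 0.528 to 2.28 CPM. The correlation of Lcn2 with summed markers over the 20 libraries, after group and batch terms were removed, was 0.10 for neutrophils, 0.54 for hepatocytes and 0.58 for cholangiocytes, and the part of these cells in the Lcn2 values was not tested.

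**Figure D2:**
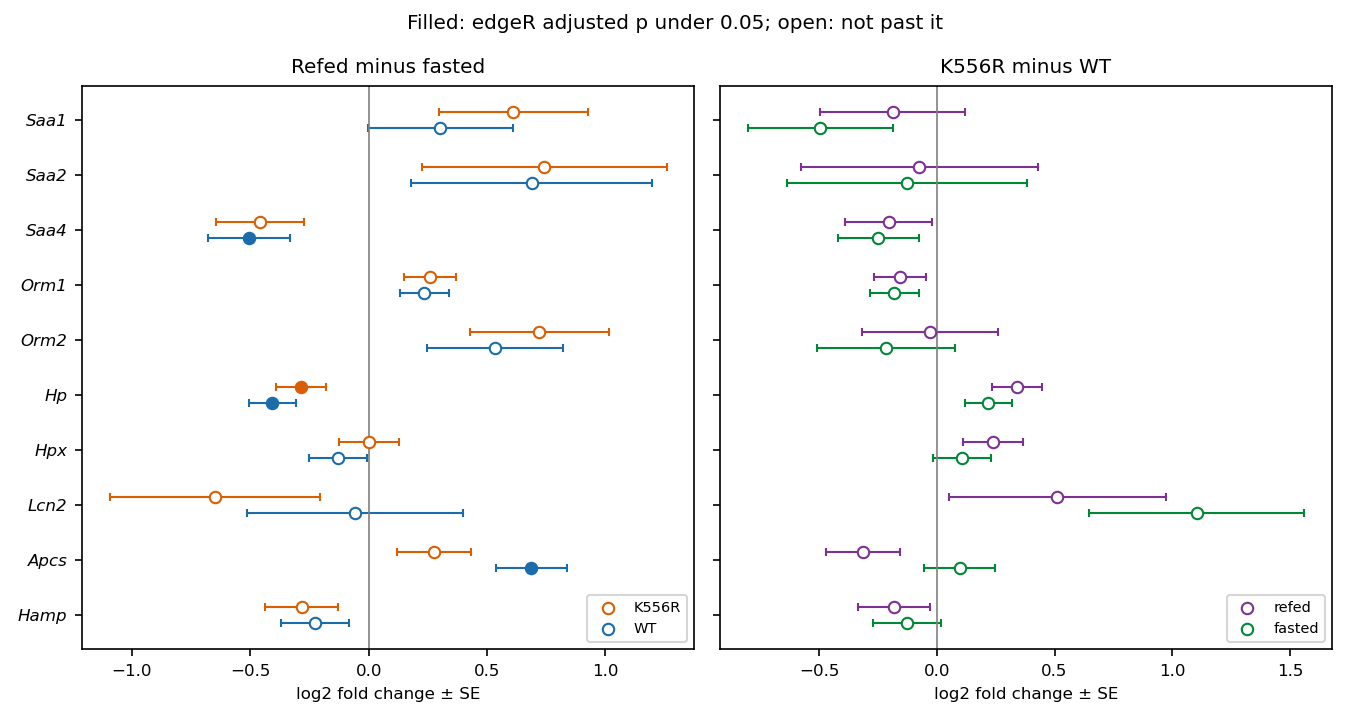
Log2 fold changes with standard errors for the 10 genes, refed minus fasted in K556R and in WT livers (left) and K556R minus WT in refed and in fasted livers (right), with filled points where the edgeR adjusted p was under 0.05. The filled points are Hp in both genotypes and Saa4 and Apcs in WT livers, and none is on the right.

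The difference between K556R and WT livers is the second contrast. None of the 10 genes passed the edgeR test in refed livers, in fasted livers or averaged over both, and the transcriptome as a whole gave 0, 0 and 4 calls (0%, 0% and 0.0288% of tested genes, in the average 0.0072% higher and 0.0216% lower). At an unadjusted p under 0.05 there were 1, 2 and 3 of the 10 genes, against 4.99%, 8.18% and 9.27% of all tested genes. DESeq2 called none of the 10 in either feeding state and 1, Hp, in the average, and limma called none in any of the 3.

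Hp had the lowest unadjusted p of the 10 in refed livers and in the average. It averaged 2139 ± 121 CPM in K556R refed and 1815 ± 137 CPM in WT refed livers, and 2796 ± 422 CPM in K556R fasted and 2421 ± 457 CPM in WT fasted livers (SD, n = 5 each). The refed groups met only at 1975 CPM in K556R and 1976 CPM in WT livers, while the fasted groups overlapped broadly. The log2 differences were 0.34 in refed livers (SE 0.11, unadjusted p = 0.00422, adjusted p = 0.854), 0.22 in fasted livers (SE 0.10, unadjusted p = 0.0402, adjusted p = 0.580) and 0.28 averaged over both (SE 0.07, unadjusted p = 0.00104, adjusted p = 0.300). All 4 within-batch differences were above 0, at 0.26 and 0.37 in refed and 0.14 and 0.55 in fasted livers for batches 1 and 2. DESeq2 gave the average an adjusted p of 0.0492, so whether Hp passed depended on the tool.

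Lcn2 had the largest genotype value of the 10 genes, a log2 difference of 1.10 in fasted livers (SE 0.46, 2.15-fold, 95% interval 0.13 to 2.08, unadjusted p = 0.0271, adjusted p = 0.539). Means were 8.29 ± 3.05 CPM in K556R fasted and 4.26 ± 3.11 CPM in WT fasted livers, and the groups overlapped between 3.58 and 8.71 CPM. The difference was 0.71 in batch 1 and 3.35 between the single fasted libraries of each genotype in batch 2. In refed livers it was 0.51 (SE 0.46, adjusted p = 0.965). Cholangiocyte markers, all 5 detected in every library, summed to 3.99 to 7.95 CPM in K556R fasted and 3.36 to 6.11 CPM in WT fasted livers (medians 7.21 and 4.92 CPM), and their sum had an r of 0.58 with Lcn2 and 0.61 with Hp. Their part in the genotype values of Lcn2 and Hp was not tested.

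With all 20 libraries, the remaining genes had intervals that included 0 in both feeding states. Apcs was at −0.31 in refed and 0.10 in fasted livers, Saa2 at −0.07 and −0.13, and Orm2 at −0.03 and −0.22. Averaged over both states, Orm1 was at −0.17 and Lcn2 at 0.81 (edgeR adjusted p = 0.50 and 0.45). Saa1 was at −0.19 in refed (SE 0.31) and −0.50 in fasted livers (SE 0.31), and −0.54 and −0.79 without the libraries standing apart (SE 0.28 and 0.27), when none of the 10 genes was called in either state. Orm1 was at −0.16 and −0.18 (SE 0.11 and 0.10), Saa4 at −0.20 and −0.25 (SE 0.19 and 0.17), and Hpx at 0.24 and 0.11 (SE 0.13 and 0.12) in refed and fasted livers. The Hpx value was 0.068 in refed livers without the refed library standing apart, and 0.010 in fasted livers without the fasted one. Saa4 in refed livers was at 0.0042 without both. Hamp averaged 653 ± 120 CPM in K556R refed and 709 ± 100 CPM in WT refed livers, and 761 ± 58.1 CPM in K556R fasted and 827 ± 197 CPM in WT fasted livers. Its log2 differences were −0.18 in refed (95% interval −0.51 to 0.15) and −0.13 in fasted livers (−0.43 to 0.18). The interaction of genotype and feeding state gave no call among the 10 or among all tested genes (0%), with 0 of the 10 and 3.98% of all genes at an unadjusted p under 0.05, and DESeq2 and limma called none of the 10.

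From library to library the 10 genes did not move as 1 block. After group and batch terms were removed, 33 of the 45 pairs had a Pearson's r above 0 over the 20 libraries, 12 had an r of at least 0.5 and none an r of −0.5 or less, with a median of 0.29. These values describe genes measured in the same libraries, which share depth and tissue make-up. The closest pair was Saa1 and Saa2 (r = 0.91, and 0.85 without the libraries standing apart), whose transcripts are 94.4% identical and share reads where they cannot be separated. Hpx went with both (0.85 with Saa1 and 0.84 with Saa2, and 0.73 and 0.68 without those libraries). Hp went with Lcn2 (0.64, and 0.71 without them). Hamp had an r of −0.22 with Saa1 and −0.23 with Hpx, which were −0.06 and 0.04 without those libraries. Its r was 0.55 with Saa4 and 0.53 with Hp, and 0.42 and 0.51 without them. The libraries standing apart carried some of the pattern: Saa4 and Hpx had an r of −0.36 with them and 0.31 without them, and Orm1 and Hpx −0.02 and 0.69. Without them 18 pairs reached 0.5 and the median was 0.43.

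**Figure D3:**
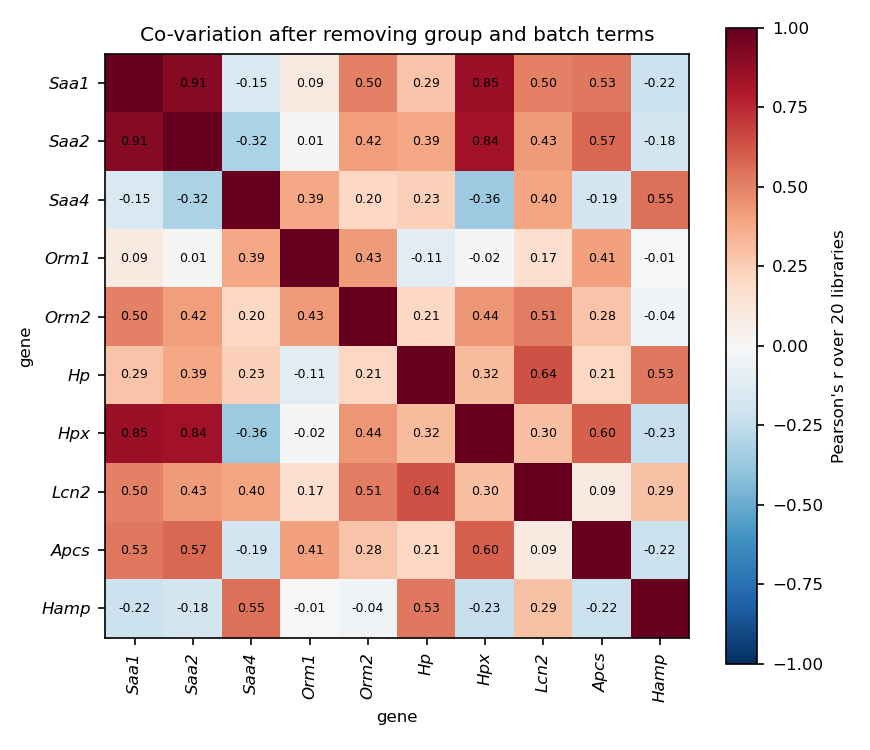
Pearson's r between the 10 genes over 20 libraries, on log2 CPM after group and batch terms were removed, with red for positive and blue for negative values. Saa1, Saa2 and Hpx form the reddest block (0.84 to 0.91), and Hamp is pale or blue against them, at −0.23 to −0.18.

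For each gene the 3 other transcripts with the highest r were listed out of 9463 ranked. Saa1 was closest to Hsd17b13, a lipid droplet protein of hepatocytes (0.89), to Saa3, another inducible serum amyloid gene (0.88), and to Gcnt4 (0.84). Among those of Saa2 were the interferon-induced gene Gbp2 (0.85) and the fatty acid binding protein gene Fabp4 (0.84). Hpx had Hsd17b13 (0.93), the ceramide desaturase gene Degs1 (0.92) and Il17rb (0.90), and Saa4 had Fgf1 (0.89), Prkag2 (0.86) and Sec16a (0.85). Lcn2 was closest to the matrix metalloproteinase gene Mmp14 (0.84), Tmem37 (0.83) and Gata6 (0.80), and Hp to Cdk11b (0.77), Tmc7 (0.76) and Tmem37 (0.74). Apcs was closest to the ribosomal protein gene Rps3a (0.85), the signal peptidase gene Spcs2 (0.83) and the chaperonin gene Cct8 (0.82). Orm1 had Clp1 (0.82), Mmaa (0.82) and Ndufb4 (0.80), Orm2 had Tcfcp2l1 (0.80), Sco1 (0.76) and Med12 (0.75), and Hamp had Nfia (0.78), Adk (0.77) and Kcnn1 (0.76). These lists are descriptions of 20 libraries, and without the libraries standing apart the r of the listed pairs ranged from 0.67 to 0.89.

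Many signalling genes upstream of the acute phase response passed the test on refeeding. Of 25 genes of interleukin-6, interleukin-1 and STAT3 signalling and their transcription factors, 1 rose and 13 fell in K556R livers (median log2 fold change −0.24) and 1 rose and 15 fell in WT livers (median −0.32), where the median over all tested genes was 0.01 and −0.01. Of all tested genes 19.6% rose and 20.3% fell in K556R livers, and 20.9% rose and 24.2% fell in WT livers. With batch 1 alone, which leaves 6 K556R libraries, 2 rose and 8 fell in K556R livers, and without the libraries standing apart 1 rose and 13 fell. Il1r1, the interleukin-1 receptor, averaged 29.6 ± 2.52 CPM in K556R refed and 186 ± 53.7 CPM in K556R fasted livers, and 30.2 ± 3.90 CPM in WT refed and 148 ± 61.9 CPM in WT fasted livers. The groups did not touch, and the log2 fold changes were −2.50 in K556R (adjusted p = 4.81e-07) and −2.25 in WT livers (adjusted p = 4.78e-07). Il6ra, the interleukin-6 receptor, fell by 2.01 in K556R and 1.99 in WT livers. Cebpd, a C/EBP factor of the acute phase, fell by 2.16 and 2.15, and Nfkbia, the NF-kappaB inhibitor, by 1.11 and 1.16. Also lower in both genotypes, and named after their values were seen, were Cebpb (−1.96 in K556R, −1.77 in WT), Socs3, the STAT3 feedback inhibitor (−0.92 and −1.02), and Stat3 itself (−0.30 and −0.35).

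Of 24 other positive acute phase genes, 2 rose and 4 fell in K556R livers (median −0.09) and 1 rose and 7 fell in WT livers (median −0.17), where 39.9% and 45.1% of all tested genes passed. With batch 1 alone none rose in either genotype. Most of the size came from the metallothioneins, metal-binding proteins that glucocorticoids and zinc also induce. Mt2 averaged 0.782 ± 0.594 CPM in K556R refed and 130 ± 73.6 CPM in K556R fasted livers, and 0.750 ± 0.241 CPM in WT refed and 70.3 ± 52.5 CPM in WT fasted livers. Its log2 fold changes were −6.93 in K556R and −6.37 in WT livers, and those of Mt1 −5.66 and −4.93. Lbp, which encodes the lipopolysaccharide-binding protein, fell by 1.19 in K556R and 1.08 in WT livers, and Serpina3n, a protease inhibitor, by 0.44 and 0.40. In K556R livers the risers were Steap4 (0.23) and Ifitm3 (0.26), and in WT livers the riser was Ifitm3 (0.28). Fibrinogen chains, C-reactive protein and the complement genes C3, C4b and Cfb, named after their values were seen, gave no call in either genotype, with log2 fold changes between −0.18 and 0.08. Of 10 negative acute phase genes, whose products fall in inflammation, 4 fell in K556R livers (median −0.19) and 5 fell and 1 rose in WT livers (median −0.25), where 39.9% and 45.1% of all tested genes passed. By direction, 19.6% of all tested genes rose and 20.3% fell in K556R livers, and 20.9% rose and 24.2% fell in WT livers. The medians over all tested genes were 0.01 in K556R and −0.01 in WT livers. With batch 1 alone 2 of the 10 negative genes fell in K556R and 3 in WT livers, and without the libraries standing apart 3 of them fell in K556R livers. Fetub fell in both (−0.38 and −0.42), and so did Rbp4 (−0.29 and −0.26) and Apoa1 (−0.39 in WT livers). Alb was called in K556R livers alone (−0.30). Ahsg (−0.30) and Itih2 (−0.29) were called lower in WT livers, where Ttr was the riser (0.23).

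Genes that govern hepcidin moved in both directions. Of 21 tested BMP and SMAD genes, 3 rose and 10 fell in K556R livers (median −0.13) and 6 rose and 8 fell in WT livers (median −0.28), beside 19.6% higher and 20.3% lower among all tested genes in K556R and 20.9% and 24.2% in WT livers. Hfe2, the gene of the BMP co-receptor hemojuvelin, averaged 104 ± 11.9 CPM in K556R refed and 63.9 ± 6.78 CPM in K556R fasted livers, and 107 ± 2.43 CPM in WT refed and 54.9 ± 6.79 CPM in WT fasted livers, log2 fold changes of 0.65 and 0.96. Tfrc, the transferrin receptor, rose by 1.20 in K556R and 1.27 in WT livers, Hfe, a partner of transferrin receptors, by 0.25 and 0.29, and Smad4, the common SMAD, fell by 0.42 and 0.46. Smad7, a target and inhibitor of the pathway, fell by 1.03 in K556R livers (adjusted p = 0.00021) and was at −0.40 in WT livers (adjusted p = 0.0706). Id2, Id3 and Smad6 of the same list, also named after their values were seen, had higher means in refed livers of both genotypes. Id2 averaged 95.6 ± 10.8 CPM in K556R refed and 79.3 ± 22.4 CPM in K556R fasted livers, and 92.6 ± 10.4 and 67.8 ± 5.44 CPM in WT livers. In the same order Id3 averaged 36.3 ± 6.81, 28.3 ± 12.5, 42.3 ± 17.2 and 20.2 ± 4.97 CPM, and Smad6 2.51 ± 0.42, 2.04 ± 0.73, 2.14 ± 0.32 and 1.54 ± 0.48 CPM. Id1, a SMAD target named after its values were seen, fell by 1.26 in K556R livers and was at −0.47 in WT livers (adjusted p = 0.132). The difference of those responses was −0.63 for Smad7 (unadjusted p = 0.025) and −0.79 for Id1 (unadjusted p = 0.038), each with an adjusted p of 1.00, so a difference between the genotypes was not shown.

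Of 17 tested iron and heme genes, 3 rose and 6 fell in K556R livers (median −0.12) and 4 rose and 9 fell in WT livers (median −0.25), where 39.9% and 45.1% of all tested genes passed. By direction, 19.6% of all tested genes rose and 20.3% fell in K556R livers, and 20.9% rose and 24.2% fell in WT livers. Slc39a14, a zinc and iron importer known as an acute phase gene, averaged 196 ± 8.60 CPM in K556R refed and 354 ± 24.4 CPM in K556R fasted livers, and 206 ± 9.82 CPM in WT refed and 349 ± 25.8 CPM in WT fasted livers, log2 fold changes of −0.82 and −0.76. Steap3, the endosomal ferrireductase, rose by 1.05 in K556R and 1.04 in WT livers, Slc11a2, the divalent metal transporter, by 0.56 and 0.57, and Slc25a37, the mitochondrial iron importer, by 0.59 and 0.52. With upper-quartile scaling 4 rose and 5 fell in K556R and 5 rose and 6 fell in WT livers, and with batch 1 alone 3 rose and 3 fell in K556R livers. Of the iron and heme genes among the 10, Hpx, Hamp and Lcn2 were not called in either genotype. Hp, the hemoglobin scavenger, was called lower in both, and its K556R call was lost in 13 of 32 alternative fits.

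Of 7 growth hormone and STAT5 genes, Stat5a (0.48 in both genotypes) and Igfals, a subunit of the circulating IGF complex (0.65 in K556R and 0.62 in WT livers), rose and the rest were not called. Of all tested genes 19.6% rose and 20.3% fell in K556R livers, and 20.9% rose and 24.2% fell in WT livers. The median of the 7 genes was 0.05 in K556R and −0.03 in WT livers, beside 0.01 and −0.01 over all tested genes. Of 9 genes of endoplasmic reticulum stress and CREBH, the liver factor known to act on Apcs and Hamp in mice, 4 rose and 4 fell in K556R livers (median 0.05) and 4 rose and 3 fell in WT livers (median 0.02), beside the same 39.9% and 45.1% of all tested genes. Hspa5, the chief chaperone of that compartment, rose by 1.03 and 1.12, and Xbp1, its stress factor, by 0.85 and 0.71, while Herpud1, of the degradation machinery, fell by 1.65 and 1.47 and Atf6 by 0.50 and 0.52. Creb3l3, the gene of CREBH itself, was counted with the signalling genes above and is named after its values were seen. It averaged 252 ± 45 CPM in K556R refed and 389 ± 47 CPM in K556R fasted livers. In WT livers it averaged 254 ± 14 CPM when refed and 388 ± 47 CPM when fasted. No gene of any of these 7 lists passed the test in a genotype contrast or in the interaction.

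**Figure D4:**
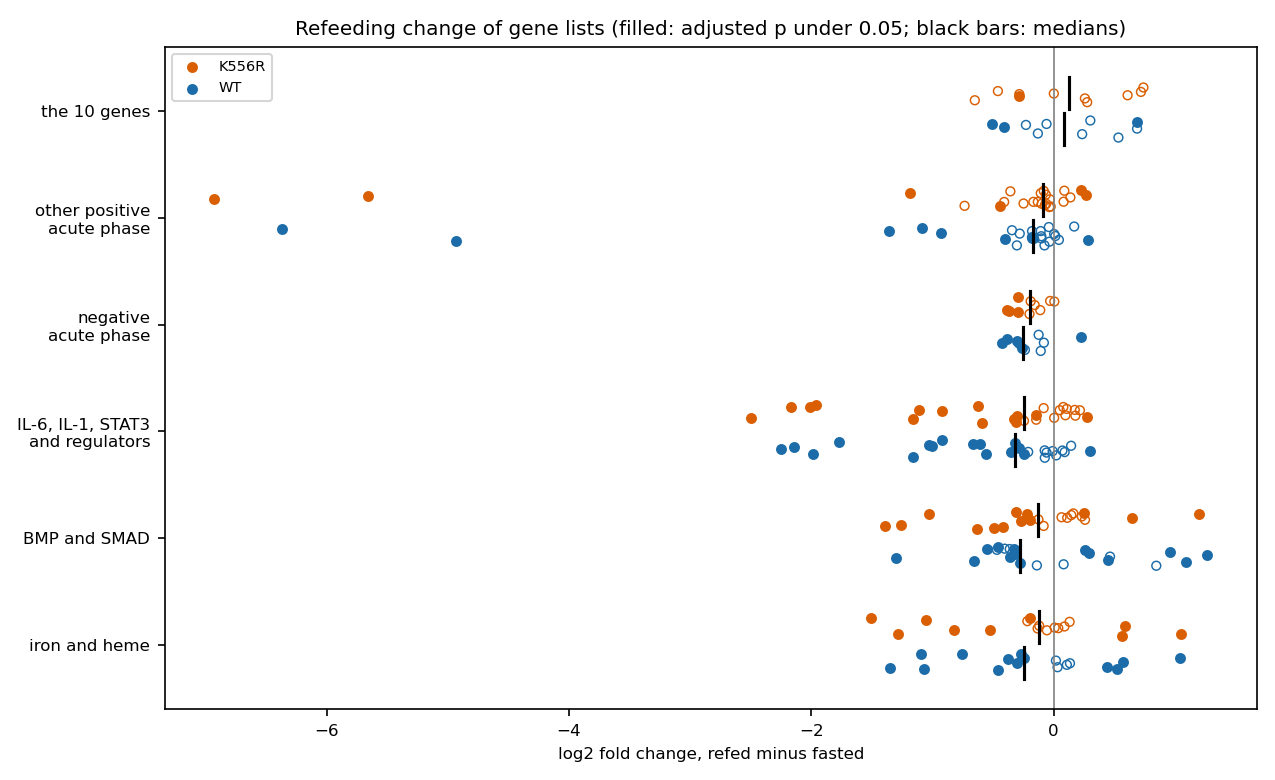
Log2 fold change on refeeding of the 10 genes and of 5 of the gene lists, with 1 point per gene, K556R above WT in each row, filled points past an adjusted p of 0.05 and black bars for medians. The 10 genes stay between −0.65 and 0.74, while Il1r1 and Cebpd lie beyond −2 and the metallothioneins beyond −4.9.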

How the data were processed

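Polyadenylated RNA of 20 mouse liver samples was sequenced. The authors deposited raw read counts per gene, without normalization, and the submitters' processing notes name build mm10 and, with no role or order, HTSeq, STAR, edgeR, TopHat, DESeq2 and STAR-Fusion. The sources used here say neither which of them counted the reads nor with what strand setting. The labels' protocols describe both a directional and a non-directional library, so antisense reads cannot be separated. All 20 columns matched a sample.

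Genes passing edgeR's expression filter (count minimum 10, total 15) were fitted with edgeR 4.0.16 in R 4.3.3, using TMM scaling, a mean for each of the 4 groups, a batch term and the quasi-likelihood test, with Benjamini-Hochberg adjustment over all 13894 genes and a threshold of 0.05. Each SE is the size of the log2 fold change over the square root of F. CPM used TMM-scaled library sizes. DESeq2 1.42.0 and limma 3.58.1 were alternatives, beside other scalings, filters, no batch term, batch 1 alone, a replicate block, the compared groups alone and each library left out. The script was tested on simulated counts. Lengths and positions came from GENCODE for GRCm38, and promoters from RefSeq.

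The 10 genes and the 7 lists were chosen with earlier results of these data known. Named in each list are up to 4 genes with the lowest p in a contrast, and all that passed where 6 or fewer did. Of the 25 BMP and SMAD symbols 22 had a row and 21 passed the filter, and of the 19 iron and heme symbols 18 and 17. Hemojuvelin has its older symbol Hfe2 in the table. One transcript that the rule for neighbours would name is not reported here.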

Additional observations from a re-analysis of the deposited data

Results flagged for a closer look

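In 4 of the 40 sets of 5 libraries (10 genes in 4 groups), 1 library lay farther from its group than Dixon's critical value allows, where chance gives about 1 set in 20. All 4 values came from the pair of K556R libraries that stood apart. The sets are not independent, since the genes concerned, Saa1, Saa2 and Hpx, varied together (r of 0.84 to 0.91). The count of 4 therefore cannot be weighed against that rate. In K556R fasted livers, replicate 1 of batch 1 had 42.9 CPM of Saa1, against 17.0 to 23.1 CPM in the other 4 libraries. The same library had 17.3 CPM of Saa2, against 5.21 to 6.58 CPM, and 4892 CPM of Hpx, against 3302 to 3662 CPM. In K556R refed livers, replicate 1 of batch 1 had 5102 CPM of Hpx, against 3128 to 3386 CPM in the others. The fasted and the refed library also had the highest sums of lymphocyte markers (7.25 and 6.25 CPM) and of proliferation markers (17.5 and 46.2 CPM), whose part in these values was not tested. Without both libraries, r was 0.73 for Saa1 with Hpx and 0.68 for Saa2 with Hpx.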

How the results depend on the processing

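Fitting other settings moved the count of the 10 genes called on refeeding in K556R livers, which was 1 (Hp). It was 0 with no filter on low counts, 0 without the 2 libraries standing apart, 0 without these and WT fasted replicate 1 of batch 2 (both chosen after the data were seen), 2 with upper-quartile scaling and with batch 1 alone, 3 with the stricter filter, with no batch term and with only the groups compared, and 4 with DESeq2. Limma kept the count at 1, but its gene was Orm1 in place of Hp. Leaving out 1 library at a time gave 0 to 3. The WT count of 3 kept within 2 to 4. DESeq2 called 68 genes of all tested in the fasted genotype contrast, 6 in the refed one, 41 in the average (Hp being 1 of the 10 genes there) and 1 in the interaction, where edgeR called 0, 0, 4 and 0. In the fasted contrast limma called 2 genes and the fit without the 2 libraries 1, in the refed one the fit on the groups compared called 3, and in the average no batch term gave 2 and batch 1 alone, the replicate block and the fit without 3 libraries 0. Leaving out 1 library gave 0 to 2 genes in fasted livers, 0 to 1 in refed livers and 3 to 13 in the average. The cause of these moves was not tested.

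Directions turned in few cases. With batch 1 alone the log2 value was 0.021 for Lcn2 on refeeding in K556R livers, 0.28, 0.48 and 0.31 for Saa1, Saa2 and Orm2 between genotypes in refed livers, and 0.31 for Lcn2 in the interaction. Without the 2 libraries Saa4 was at 0.0042 between genotypes in refed livers, and without 3 libraries Hpx was at −0.066 in fasted livers and −0.029 in the average. Leaving out 1 library gave −0.17 to 0.088 for Hpx and −0.88 to 0.0033 for Lcn2 on refeeding in K556R livers, and −0.44 to 0.12 for Orm2 between genotypes in fasted livers. Of 1900 values under alternatives, 68 more crossed 0, none of them called and each by at most 1 SE.

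Same-numbered libraries did not deviate together as a rule, with a median r of −0.12 (−0.36 to 0.71 over 24 pairs, 5 of them over 0.1). Other pairs within a batch had a median r of −0.03 (−0.58 to 0.51 over 60 pairs, 9 of them over 0.1). Of the libraries, 8 correlated best with their own number. The 2 K556R libraries standing apart were an exception, since they share a number and a batch. Both lay low on the second principal component (−37.8 refed and −26.4 fasted). With the replicate block the counts of the 10 genes called were 3 in WT and 1 in K556R livers on refeeding, and over all genes 5929 and 4511. The block took the negative acute phase genes called in K556R livers to 1, beside 4. Of the 10 genes, Lcn2 had the fewest reads in its lowest library, at 48, and the part of depth in its spread was not tested.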
